A study of Rattus norvegicus with 138 samples.

Results

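The genes described here are the 4 tissue inhibitors of metalloproteinases (Timp1, Timp2, Timp3 and Timp4) and 4 components of the plasminogen activator system (Plau, Plat, Plaur and Serpine2) in rat tibialis anterior (TA) muscle after volumetric muscle loss (VML), the surgical removal of a volume of muscle too large for the tissue to replace. They were chosen by symbol, and all 8 were found among the 16181 gene symbols used here. Each library was made from the RNA of a TA muscle, and libraries with fewer than 7000 symbols above 1 TPM (a transcript's abundance scaled to a fixed total per library) were left out.

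The study used inbred male Lewis rats of about 4 months, and muscle was removed from the middle of the TA on one side with a 6 mm biopsy punch, leaving tissue on either side of the defect. In some rats the defect was left non-repaired, and in others it was filled with an autologous minced graft, that is, the excised muscle cut into small pieces and put back. Injured and contralateral muscles were taken at 3, 7, 14 and 28 days post injury (DPI), and some rats carry a running label whose protocol is not given in the sources used here. The 4 control muscles, labelled sham at day 0 and described by the study as unoperated, were the left and right TA of 2 rats, and neither control rat carried an injury, a graft or the running label. Labels that conflict put 9 libraries in no group and 13 fell below the filter, which left 114 muscles from 78 rats in 31 groups. Group sizes differed, with 3, 8, 4 and 4 non-repaired, non-running injured muscles at 3, 7, 14 and 28 DPI and 2, 4, 2 and 2 contralateral ones.

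TIMPs are secreted proteins that block the active site of matrix metalloproteinases (MMPs) and related enzymes. Timp3 differs from the others in being held in the extracellular matrix and in inhibiting several ADAM and ADAMTS proteases, and Timp2 also takes part with Mmp14 in activating the zymogen of Mmp2. Plasminogen is cut to plasmin by the urokinase-type activator (Plau) or the tissue-type activator (Plat), Plaur holds urokinase at the cell surface, and Serpine2 (protease nexin-1) is a serpin that inhibits thrombin, both activators and plasmin. In muscle, the urokinase branch is known for its part in fibrin clearance and in the entry of inflammatory cells after injury.

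RefSeq (GRCr8) promoter sequence was matched for 7 members, with Plat unmatched. The letters TGANTCA of the AP-1 motif were searched on both strands over the 250 bases before the start site, together with the variant TGAGTAA, and no run of letters can match both on the same strand. TGANTCA was found only in Plaur among these 7 and in 6.36% of all 27457 promoters searched, and TGAGTAA only in Timp1 and in 2.25% of all promoters. Plaur and Timp1 were also the members with the highest fold changes at 3 DPI, and their sequences are shown with the match in capitals. Timp2, Plau and Serpine2 held neither run and also rose at 3 DPI (log2 fold changes 3.70, 3.89 and 1.74), so a match did not separate the members that rose from the others. Plau, which rose, and Timp3, which did not, are shown as members with neither run. A match is only a run of letters in these windows, and binding was not measured. Positions are counted back from the start site, so the Plaur match spans -83 to -77 and the Timp1 match -108 to -102. The Timp1 window lies within the RefSeq span of the gene, and 30 bases of it are given.
Timp1, chrX:3771212-3771241, minus strand: cagtgggtggaTGAGTAAtgcgtccaggaa
Plaur, chr1:89181213-89181362, plus strand: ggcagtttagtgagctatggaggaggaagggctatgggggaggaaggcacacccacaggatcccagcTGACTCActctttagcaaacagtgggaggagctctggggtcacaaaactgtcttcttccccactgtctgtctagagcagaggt
Plau, chr15:3511988-3512137, minus strand: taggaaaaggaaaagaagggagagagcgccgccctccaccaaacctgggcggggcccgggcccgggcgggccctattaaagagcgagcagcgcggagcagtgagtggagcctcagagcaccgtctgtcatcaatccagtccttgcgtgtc
Timp3, chr7:19459559-19459708, minus strand: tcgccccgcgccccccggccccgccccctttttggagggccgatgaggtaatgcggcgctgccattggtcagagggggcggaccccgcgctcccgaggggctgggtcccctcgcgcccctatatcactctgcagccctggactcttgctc
The GC box GGGCGG was found in Timp1, Timp2, Timp3, Plau and Serpine2 (either strand), and in 32.4% of all promoters. The ETS run AGGAAG was found in Timp1, Plaur, Serpine2 and Timp4, the last of which was below control at 3 DPI, and in 29.4% of all promoters. The TATA run TATAAA was found in no member with a promoter and in 13.1% of all promoters.

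Injury was accompanied by a wide shift in the transcriptome that sets the scale for every value below. In TPM all genes of a library share a fixed sum, and the summed TPM of 8 muscle fibre markers went from 158700 to 196000 in control muscle to 32360 to 43340 at 3 DPI and 123600 to 132400 at 28 DPI in non-repaired, non-running injured muscle. The median log2 fold change of the 11328 genes tested against control was 0.96, 0.91, 0.53 and 0.52 at 3, 7, 14 and 28 DPI, and 0.31, 0.32, 0.20 and 0.20 after rescaling by median-of-ratios size factors. In whole muscle, fewer cells of a type and less RNA per cell cannot be told apart. Control rats also come from another numbered animal series than the operated rats, so injury and series cannot be told apart in comparisons with control, whereas comparisons with contralateral muscle stay within the operated series. A gene was called when limma gave a Benjamini-Hochberg adjusted p under 0.05 and the log2 fold change of TPM + 1 was beyond 1, which understates the change of low genes.

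In control muscle, Serpine2 had the highest mean level of the 8 members, 47.5 ± 7.23 TPM (SD, n = 4). It was followed by Timp3 with 27.3 ± 10.8 and Timp2 with 26.6 ± 2.41, which differed by less than their spread, as did Timp4 with 11.8 ± 1.09, Plat with 10.1 ± 4.21 and Plau with 9.13 ± 4.64. Timp1 with 2.16 ± 1.02 and Plaur with 1.05 ± 0.258 were lowest. At 3 DPI that order was rearranged: Timp1 (490 ± 281 TPM, n = 3) and Timp2 (359 ± 57.0) led, not separated beyond their spread, and Timp3 and Timp4 stood last. By 7 DPI Timp2 led alone with 451 ± 128.4 TPM (n = 8), and it remained first at 14 and 28 DPI.

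Against control, 6 of the 8 members were higher in non-repaired injured muscle at 3 DPI, where 48.3% of all genes were called higher. The counts were 6 at 7 DPI (45.6% of all genes), 6 at 14 DPI (25% of all genes) and 5 at 28 DPI (21.1% of all genes), and no member was called lower on any day, against 4.24%, 2.42%, 0.547% and 0.212% of all genes. The median log2 fold change of the 8 members at 3 DPI was 2.96, beside 0.96 for all genes.

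**Figure D1:**
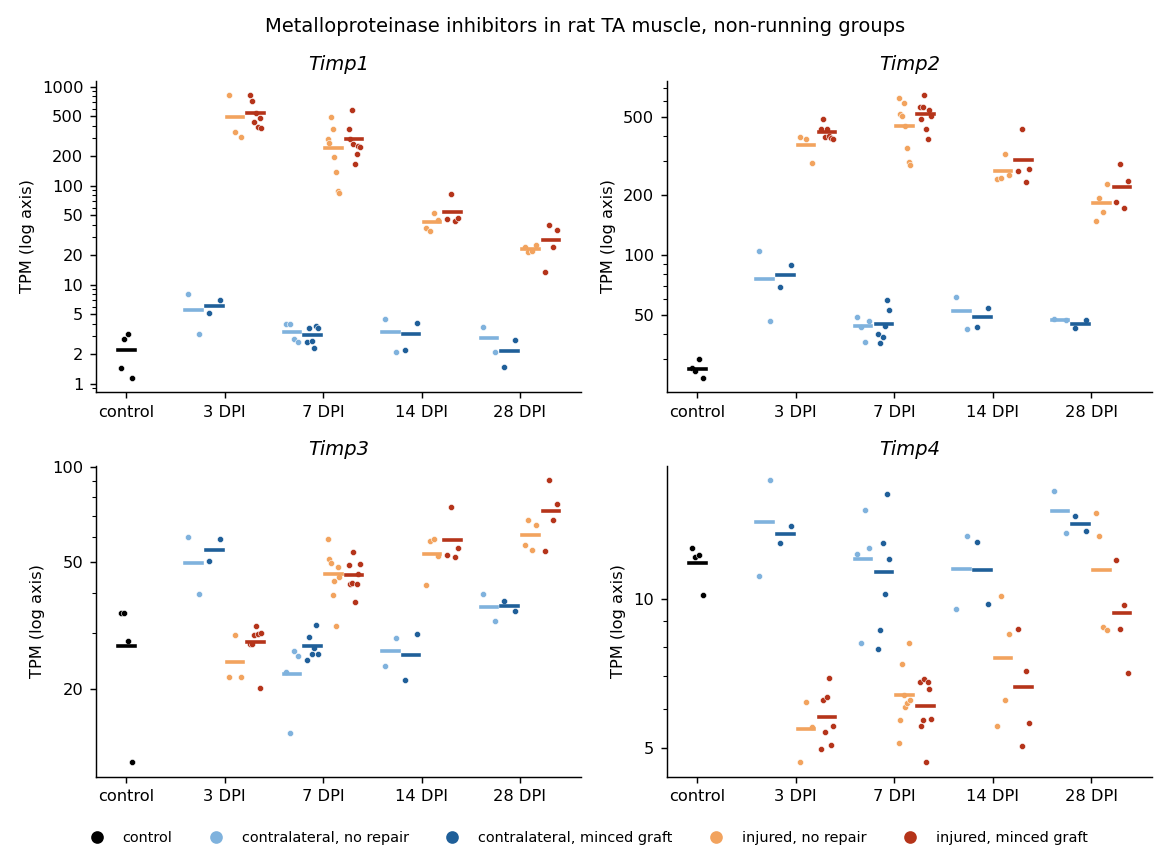
TPM of Timp1, Timp2, Timp3 and Timp4 on log axes for each non-running muscle in control, contralateral and injured groups by day; points are muscles and lines are group means. Injured Timp1 and Timp2 lie above all control muscles on every day, injured Timp3 climbs from 24.3 TPM at 3 DPI to 61.0 TPM at 28 DPI, and injured Timp4 is lowest at 3 DPI.

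Timp1, the inhibitor best known as inducible by injury and cytokines, had the largest response. Control muscles held 1.45, 2.85, 3.20 and 1.14 TPM, and non-repaired injured muscles at 3 DPI held 813, 348 and 309 TPM. At 7 DPI the 8 muscles ran from 83.9 through a median of 231 to 489 TPM. Neither group overlapped with control, and the 7 DPI muscles themselves spread widely, with rats numbered below 100 at 358 ± 98.1 TPM and those above 100 at 125.7 ± 51.0 TPM (n = 4 each).

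At 14 DPI Timp1 stood at 37.6, 34.95, 53.2 and 45.3 TPM, and at 28 DPI at 23.8, 21.2, 21.7 and 25.1 TPM, so that every injured muscle was still above every control muscle. The log2 fold changes against control were 7.20 (SE 0.43, adjusted p = 1.53e-27), 6.07 (SE 0.35), 3.83 (SE 0.40) and 2.98 (SE 0.40, adjusted p = 5.8e-10). Between days Timp1 was called lower at 7 against 3 DPI (log2 fold change -1.12, adjusted p = 0.014) and at 14 against 7 DPI (-2.24, adjusted p = 8.87e-08), where 5.35% and 6.1% of all genes were called lower. In these 2 steps 1 and 4 members were called lower, and none was called higher (2% and 0.724% of all genes). None was called either way from 14 to 28 DPI (0.106% higher, 0.353% lower). At 7 against 3 DPI, Timp3 (0.89) was called without the second 3 DPI muscle (1.03). Plau (-0.95) and Plaur (-0.84) were called without the third (-1.06 and -1.05) and with all libraries kept (-1.31 and -1.18). The 3 DPI and 28 DPI rats were all numbered below 100 and the 14 DPI rats all above 100. Within those ranges, Timp1 in the 3 DPI muscles (309 to 813 TPM) overlapped with the 7 DPI muscles below 100 (269 to 489 TPM). Timp1 in the 14 DPI muscles (34.95 to 53.2 TPM) lay below the 7 DPI muscles above 100 (83.9 to 193 TPM). The call from 3 to 7 DPI also rested on the first 3 DPI muscle: without it the value was -0.69 with adjusted p = 0.253, and in a fit of those 2 groups alone the adjusted p was 0.146.

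Timp2, the most abundant TIMP from 7 DPI on, rose less steeply and fell less. Control muscles held 26.8, 25.9, 29.7 and 23.95 TPM, against 396, 388 and 293 TPM at 3 DPI and 286 to 619 TPM (median 478, n = 8) at 7 DPI. At 14 DPI the values were 244, 245, 323 and 253 TPM, and at 28 DPI 149, 194, 164 and 229 TPM. No injured muscle on any day overlapped with control, and the log2 fold changes were 3.70 (SE 0.24), 3.98 (SE 0.19), 3.27 (SE 0.22) and 2.73 (SE 0.22, adjusted p = 1.03e-18). The fall from 3 to 28 DPI was -0.97 (adjusted p = 2.36e-04), short of the fold limit. Leaving out the third 3 DPI muscle or the fourth 28 DPI muscle took it past the limit, to -1.11 and -1.08.

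Timp3, the matrix-bound inhibitor, ran on another course. Control muscles held 34.5, 34.6, 28.3 and 11.7 TPM, and injured muscles held 21.7, 29.5 and 21.7 TPM at 3 DPI, within the control range. The level was then 31.4 to 59.3 TPM at 7 DPI (median 46.7), 42.2, 58.1, 59.4 and 52.2 TPM at 14 DPI and 56.5, 67.7, 54.5 and 65.2 TPM at 28 DPI, with the last 2 groups above every control muscle. From 3 to 28 DPI Timp3 rose by a log2 fold change of 1.30 (SE 0.21, adjusted p = 1.14e-07), the only member called higher among the 8, where 4.53% of all genes were called higher. With size factors this rise was 1.68, and that of Timp4 was also called (1.25, against 0.91 in TPM). Timp4 was called as well with a pseudocount of 0.1 TPM (1.02) and without the third or the fourth 28 DPI muscle (1.02 each).

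Against control, Timp3 was not called at 3 DPI (log2 fold change -0.06, adjusted p = 0.788) or 7 DPI (0.82), and was called at 14 DPI (1.03, SE 0.20) and 28 DPI (1.24, SE 0.20, adjusted p = 8.4e-08). These 2 calls depended on the control muscle with 11.7 TPM, which came from the same rat as the muscle with 28.3 TPM: without it the values were 0.68 and 0.89. The 14 DPI value also fell short of the limit without the second or the third injured muscle (0.98 and 0.97) and with control muscles averaged per rat (0.97). With size factors Timp3 stood at -0.91 at 3 DPI, and at 0.58 and 0.78 at 14 and 28 DPI with neither called. That control muscle was also the lowest of the 4 for Timp1, Timp2, Timp4, Plau, Plat, Plaur and Serpine2.

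Timp4, an inhibitor found mainly in heart, skeletal muscle and fat, was the member that stood below control. Control muscles held 12.6, 12.1, 12.3 and 10.2 TPM, and at 3 DPI the injured muscles held 4.68, 6.18 and 5.52 TPM, with no overlap. At 7 DPI the range was 5.1 to 8.1 TPM, at 14 DPI 5.53, 10.1, 6.24 and 8.48 TPM, and at 28 DPI 14.9, 13.4, 8.78 and 8.65 TPM, spanning the control values. The log2 fold changes were -0.99 (SE 0.18, adjusted p = 3.48e-07), -0.80, -0.60 and -0.07 (adjusted p = 0.692), so the fold limit was not passed on any day. With size factors Timp4 was called lower at 3, 7 and 14 DPI (-1.78, -1.53 and -1.04), and at 3 DPI also with a pseudocount of 0.1 TPM (-1.10), without the control muscle with 10.2 TPM (-1.05) and without the second injured muscle (-1.07). With all libraries kept it was called lower at 7 DPI (-1.09, adjusted p = 0.00337).

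The make-up of the TIMP pool, which does not depend on the scaling of a library, was rearranged after injury. In control muscle, Timp2 made up 40.3% ± 7.60 of the summed TIMP TPM, Timp3 38.8% ± 9.87, Timp4 17.8% ± 2.61 and Timp1 3.12% ± 1.14 (SD, n = 4). At 3 DPI Timp1 made up 53.3% ± 10.97 and Timp3 and Timp4 3.01% and 0.685%, while the pool had gone from 67.8 ± 13.9 to 879 ± 317 TPM. Timp2 then made up 62.2%, 72.0% and 65.6% at 7, 14 and 28 DPI. At 28 DPI Timp3 was back at 21.9% ± 1.48 and Timp4 at 4.19% ± 1.48, below their control shares in every muscle. Grafted muscles had Timp1 shares of 53.4%, 33.4%, 12.9% and 8.32% on the 4 days, beside 53.3%, 30.0%, 11.5% and 8.32% without repair.

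**Figure D2:**
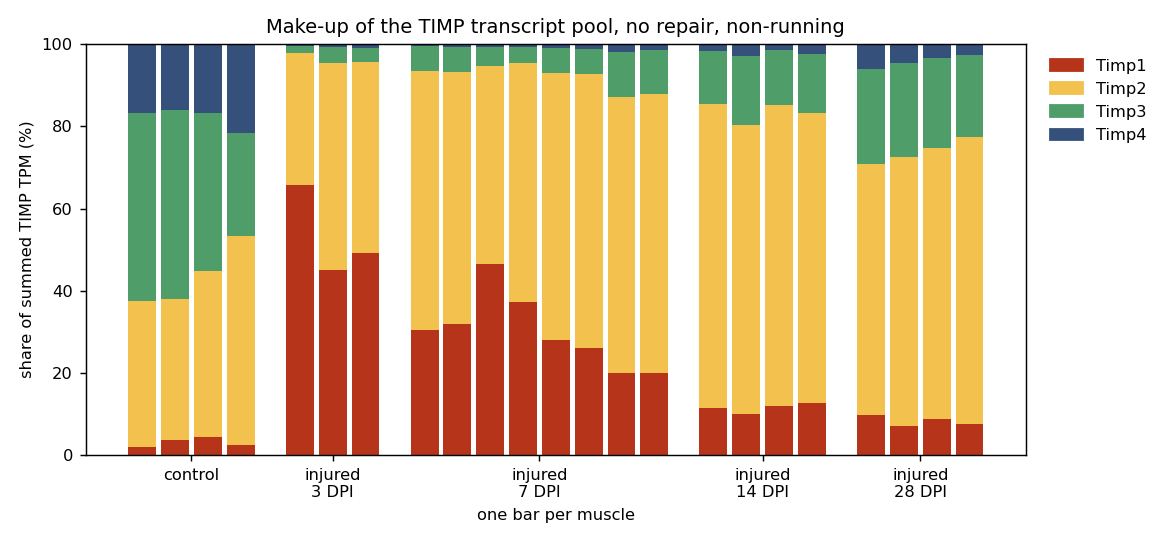
Share of each TIMP in the summed TIMP TPM (percent), with a bar for each control muscle and each non-repaired, non-running injured muscle by day. Timp1 averages 53.3% of the pool at 3 DPI and 8.32% at 28 DPI, and Timp2 is the largest share from 7 DPI on.

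Plau, which encodes urokinase, was highest at the earliest day and then levelled off. Control muscles held 9.72, 10.6, 13.6 and 2.62 TPM, and injured muscles 143.9, 143.04 and 113.7 TPM at 3 DPI and 48.2 to 91.8 TPM (median 68.4, n = 8) at 7 DPI. At 14 DPI the values were 49.7, 47.4, 43.0 and 39.2 TPM, and at 28 DPI 42.2, 44.9, 43.7 and 44.2 TPM, within a narrow band and apart from control. The log2 fold changes were 3.89 (SE 0.22, adjusted p = 1.35e-28), 2.94, 2.34 and 2.31 (SE 0.21, adjusted p = 1.22e-16). The difference between 28 and 14 DPI was -0.03 (SE 0.21).

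Plaur, the urokinase receptor, was lowest of the members in control muscle, at 1.01, 1.15, 1.32 and 0.71 TPM. It stood at 46.7, 36.7 and 26.3 TPM at 3 DPI, 10.7 to 36.0 TPM (median 19.2) at 7 DPI, 5.74, 5.70, 5.62 and 6.74 TPM at 14 DPI and 4.21, 2.82, 4.01 and 5.05 TPM at 28 DPI. Every injured muscle was above every control muscle, and the log2 fold changes were 4.17 (SE 0.26), 3.33, 1.77 and 1.28 (SE 0.24, adjusted p = 3.63e-06). From 3 to 28 DPI Plaur was called lower by -2.89 and Plau by -1.58, beside 24.3% of all genes called lower.

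Plat, which encodes the tissue-type activator, had its highest mean at 7 DPI and the smaller difference from control of the 2 activators at 28 DPI. Control muscles held 11.4, 14.5, 9.99 and 4.41 TPM, against 58.0, 54.8 and 33.4 TPM at 3 DPI, 46.6 to 97.6 TPM (median 72.0) at 7 DPI. At 14 DPI the values were 26.2, 25.1, 30.4 and 27.1 TPM, and at 28 DPI 17.6, 18.5, 13.3 and 15.1 TPM, where 1 injured muscle overlapped with control. The log2 fold changes were 2.23, 2.75 (SE 0.20), 1.44 and 0.72 (SE 0.23, adjusted p = 0.0045), the last below the fold limit. The difference between 7 and 3 DPI (0.53, adjusted p = 0.0501) did not pass the test, and 14 against 7 DPI was called lower (-1.31, adjusted p = 7.57e-08). That call was lost with size factors (-0.98) and with all libraries kept (-0.95, adjusted p = 0.0678).

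The ratio of Plau to Plat within a muscle was picked after its values were seen. It was 0.884 ± 0.334 in control muscle, and 2.83 ± 0.500, 1.00 ± 0.146, 1.66 ± 0.268 and 2.76 ± 0.434 on the 4 days after injury. In non-repaired contralateral muscle the ratio was 1.93 ± 0.393, 1.504 ± 0.244, 3.13 ± 0.890 and 1.97 ± 0.488 on the same days (n = 2, 4, 2 and 2), so its mean was above that of injured muscle at 7 and 14 DPI and below it at 3 and 28 DPI. No test was run on this ratio.

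Serpine2, the most abundant member in control muscle, rose at 3 and 7 DPI. Control muscles held 47.5, 52.0, 53.3 and 37.4 TPM, against 186, 172 and 126.8 TPM at 3 DPI and 100 to 288 TPM (median 192) at 7 DPI. At 14 DPI the values were 69.6, 80.3, 82.5 and 79.5 TPM, and at 28 DPI 73.6, 66.3, 65.9 and 69.7 TPM, still above every control muscle. The log2 fold changes were 1.74 (SE 0.22, adjusted p = 3.21e-11), 1.87 (SE 0.18), 0.71 (adjusted p = 0.0016) and 0.54 (adjusted p = 0.017), the last 2 short of the limit. With size factors the 3 DPI value was 0.87 and no longer called, and that of 7 DPI was 1.07. Between days Serpine2 was called lower at 14 against 7 DPI (-1.16, adjusted p = 1.03e-07) and at 28 against 3 DPI (-1.2, adjusted p = 1.87e-06). Of all genes, 6.1% and 24.3% were called lower there. Both calls were lost with size factors (-0.82 and -0.8) and with all libraries kept (-0.79 and -1.2, adjusted p = 0.329 and 0.077).

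**Figure D3:**
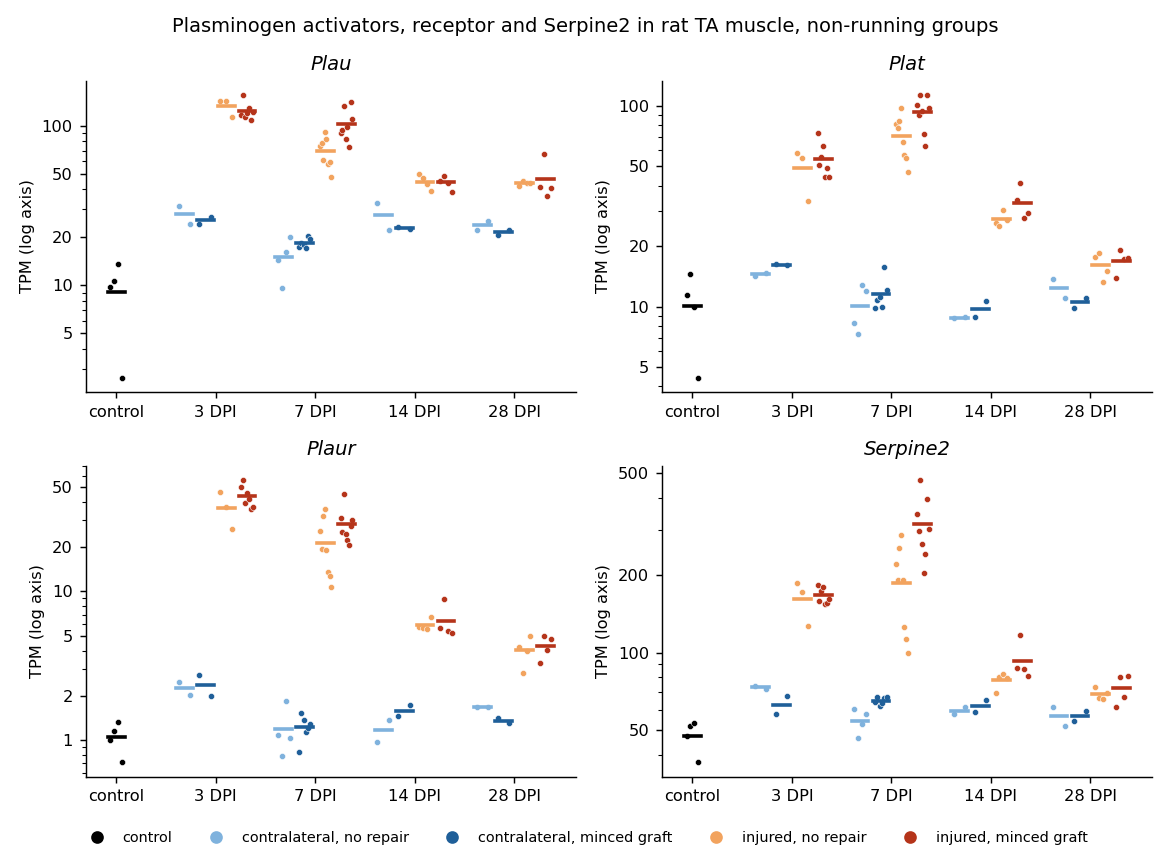
TPM of Plau, Plat, Plaur and Serpine2 on log axes for each non-running muscle in control, contralateral and injured groups by day; points are muscles and lines are group means. The group means of contralateral Plau lie between those of control and injured muscle, and its muscles without repair overlap with control at 7 DPI, Plat reaches its highest group means at 7 DPI, and grafted Serpine2 at 7 DPI averages 316 TPM beside 186 TPM without repair.

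The wider plasminogen list held 26 genes, of which 25 are in the table and 16 passed the filter on low values, the 4 plasminogen members among them. At 3 DPI 14 of the 16 were called higher and 1 lower against control, at 7 DPI 12 and 1, at 14 DPI 10 and 0, and at 28 DPI 9 and 0. Of all genes, 48.3%, 45.6%, 25% and 21.1% were called higher and 4.24%, 2.42%, 0.547% and 0.212% lower on these days. The median log2 fold change of the list was 2.37, 1.99, 1.19 and 1.01 on the 4 days. Among those called higher at 3 DPI was Anxa2, which binds plasminogen at the cell surface with S100a10 (16.2 to 869 TPM, log2 fold change 5.64). At 28 DPI the highest were Anxa2 (2.75) and S100a10 (2.74). The gene called lower was Masp1, a complement protease, at 3 DPI (-1.36) and 7 DPI (-1.33). Plg, plasminogen itself, is made mainly in the liver and did not pass the filter.

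Of 32 listed TIMP targets, 29 were tested, and 25, 23, 20 and 16 were called higher against control at 3, 7, 14 and 28 DPI, with none called lower, beside the same shares of all genes (48.3%, 45.6%, 25% and 21.1% higher, and 4.24%, 2.42%, 0.547% and 0.212% lower). The median log2 fold changes were 2.42, 2.82, 1.40 and 1.10. Mmp19 (5.34) and Mmp14 (5.20) were highest at 3 DPI. Mmp14, the membrane-anchored activator of Mmp2, went from 2.79 TPM in control muscle to 133.1, 358, 152 and 60.4 TPM, and Mmp2 from 10 to 156, 496, 287 and 160 TPM, so that both had their highest means at 7 DPI, the day on which mean Timp2 was highest. The ratio of Timp2 to Mmp14 was 11.4 ± 6.40 in control muscle and 2.70 ± 0.250, 1.31 ± 0.170, 1.77 ± 0.0932 and 3.43 ± 1.42 on the 4 days.

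Summed markers of other cell types moved on the same days. Macrophage markers (8 genes) rose from 20.3 to 42.2 TPM in control muscle to 4622 to 5943 TPM at 3 DPI, with 679 to 3159 at 7 DPI, 492 to 599 at 14 DPI and 277 to 835 at 28 DPI. Fibroblast markers (7 genes) went from 67.2 to 217 TPM to 4210 to 7134 at 3 DPI, 5980 to 16910 at 7 DPI and 2170 to 3604 at 28 DPI. Neutrophil markers (6 genes) were at 74.8 to 267 TPM at 3 DPI, beside 1.28 to 5.74 in control muscle, with Ngp at 0 in non-repaired, non-running contralateral muscle at 3 DPI and Mpo at 0 there at 7 and 14 DPI. Their part in the members' changes was not tested.

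Against contralateral muscle of the same series, 6 members were called higher and Timp4 lower (-1.21, adjusted p = 3.24e-07) at 3 DPI, where 32.3% of all genes were called higher and 5.92% lower. The counts higher were 7, 4 and 2 at 7, 14 and 28 DPI, beside 45.3%, 20.9% and 13.1% of all genes, and no member was called lower, beside 2.01%, 0.168% and 0.212%. At 28 DPI the 2 were Timp1 (2.66, SE 0.49) and Timp2 (1.93, SE 0.27). Timp3 at 14 DPI (0.98) and Plaur at 28 DPI (0.89) fell short of the fold limit. Both were called with a pseudocount of 0.1 TPM (1.01 and 1.18). Timp3 was also past the limit without the second contralateral muscle (1.12) or the first injured one (1.08), and Plaur without the second injured one (1.01). Timp3 was below contralateral muscle at 3 DPI (-0.99, SE 0.26, adjusted p = 4.05e-04) without passing the fold limit, with no overlap between 21.7, 29.5 and 21.7 TPM in injured and 60.0 and 39.7 TPM in contralateral muscle, and was called higher at 7 DPI (1.03). The Timp3 value at 3 DPI was called with size factors (-1.38), whereas the 7 DPI call was lost (0.20), as were those of Serpine2 at 3 and 7 DPI (0.71 and 0.82), and Timp4 was called lower at 7 and 14 DPI (-1.58 and -1.03). The Serpine2 call at 3 DPI (1.11) was also lost with all libraries kept (1.11, adjusted p = 0.179) and without the first injured muscle (1.00, just short of the fold limit). Without the second contralateral muscle the Timp4 value at 3 DPI was -0.91 and not called, while that of Timp3 was -1.28 and called, and without the fourth contralateral muscle the Timp3 value at 7 DPI was 0.85 and not called.

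In grafted rats, Timp1 and Timp2 were again higher on the injured side on every day. Grafted injured against grafted contralateral muscle gave 6 members higher and Timp4 lower (-1.10) at 3 DPI (37.2% and 6.8% of all genes), and 6, 5 and 4 higher on the later days (42.9%, 25.6% and 18.8%) with none lower (3.35%, 0.53% and 0.3%). Timp1 was at 6.21, 6.09, 3.74 and 3.16 and Timp3 at -0.95, 0.71, 1.17 and 0.95 as log2 fold changes. Timp3 passed the fold limit at 3 DPI (-1.06) and, before rounding, at 28 DPI (1.0) without the first contralateral muscle of that day. At 28 DPI it was also past the limit without the first grafted muscle (1.08). Without the first contralateral muscle Timp3 at 14 DPI was 0.94 and Plau at 28 DPI 0.98, neither called, and without the second grafted muscle Plau at 28 DPI was 0.85. Both calls were also lost with all libraries kept (1.17 for Timp3, adjusted p = 0.0793, and 1.03 for Plau, adjusted p = 0.14). With size factors Timp3 was also called lower at 3 DPI (-1.45) and Timp4 at 7 and 14 DPI (-1.42 and -1.21), and the calls of Serpine2 at 3 DPI (0.88), Timp3 at 14 DPI (0.65) and Plau and Plaur at 28 DPI (0.61 and 0.89) were lost, which left 2 higher at 28 DPI. In running rats without repair, 6 members were higher and Timp4 lower (-1.01) at 3 DPI, beside 33.7% and 6.48% of all genes. Timp4 was not called without the second contralateral muscle (-0.96) or with each library as its own sample (-1.0). At 7 and 14 DPI 7 and 5 members were higher, beside 39.9% and 25.7% of all genes, and none lower (3.2% and 0.671%). The Timp3 call at 7 DPI (1.10) was lost without the second contralateral muscle (0.89) or the third injured one (0.97), and with all libraries kept (1.08, adjusted p = 0.0907). With size factors Timp4 was called lower at 7 and 14 DPI as well (-1.53 and -1.05), and Timp3 at 7 DPI (0.45) and Plau at 14 DPI (0.79) lost their calls.

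**Figure D4:**
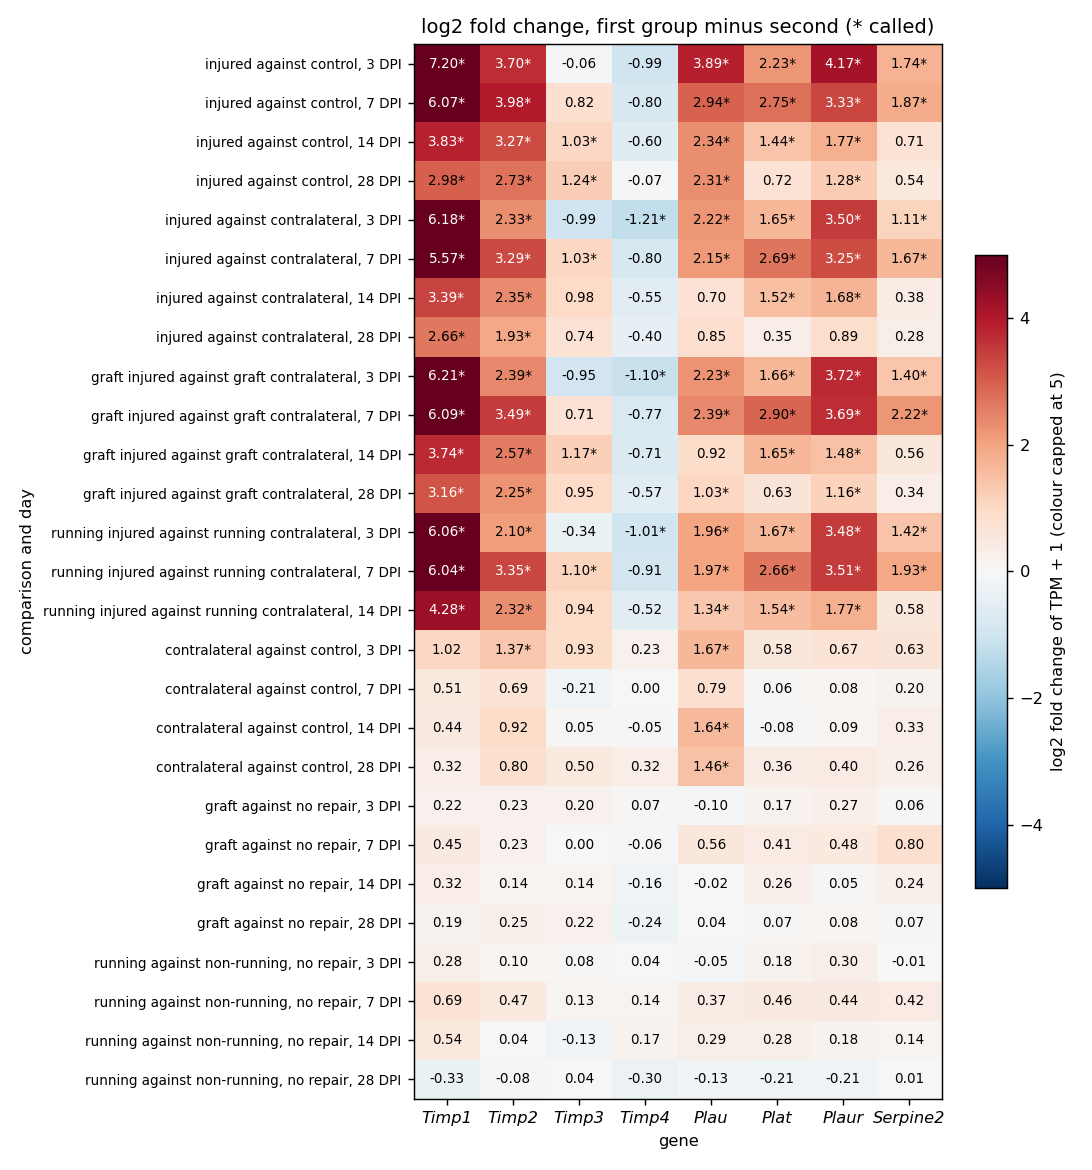
Log2 fold change of each member (columns) in each comparison and day (rows), first group minus second, on the TPM + 1 scale; an asterisk marks a call and colour is capped at 5. Timp1 reads 7.20 for injured against control at 3 DPI, whereas no member is called for graft against no repair or for running against non-running.

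Contralateral muscle was not identical to control. At 3 DPI Plau (1.67, SE 0.25) and Timp2 (1.37, SE 0.27) were called higher in non-repaired rats, beside 6.37% of all genes, and Plau alone was called at 14 DPI (1.64, 0.653% of all genes) and 28 DPI (1.46, adjusted p = 1.97e-04, 0.185% of all genes). None was called at 7 DPI, where Plau stood at 0.79 (adjusted p = 0.0084) and 0.636% of all genes were called higher. No member was called lower in contralateral muscle, beside 0.053%, 0.168%, 0.0618% and 0% of all genes on the 4 days. With all libraries kept, Serpine2 (-1.36, adjusted p = 0.00895), Timp3 (-1.37, adjusted p = 0.00297) and Timp4 (-1.22, adjusted p = 0.00291) were called lower at 7 DPI, where that setting adds 2 muscles that have only libraries below the limit. Contralateral Plau was 31.4 and 24.3 TPM at 3 DPI, 14.3, 9.67, 16.2 and 20.2 at 7 DPI, 32.8 and 22.2 at 14 DPI and 22.3 and 25.4 at 28 DPI, against 2.62 to 13.6 TPM in control. Only the 7 DPI group overlapped with control. Plau was also 17.1 to 20.5 TPM in the 6 grafted contralateral muscles at 7 DPI.

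With size factors the Plau values were 1.27, 1.74 and 1.40 at 3, 14 and 28 DPI, all still called, whereas the Timp2 call at 3 DPI was lost (0.91). With all libraries kept all 4 calls were lost, with adjusted p = 0.0628, 0.762 and 1 for Plau and 0.166 for Timp2. The calls rested on the shared estimate of spread, since these groups hold 2 muscles each: in fits of the compared groups alone the adjusted p was 0.123, 0.361 and 0.652, and that of Timp2 at 3 DPI 0.0789. Timp2 at 3 DPI also rested on 1 of its 2 muscles (104.9 and 46.5 TPM): without the first it was 0.79 with adjusted p = 0.107. At 3 DPI Timp3 (0.93) was called without the second contralateral muscle (1.22), the first control muscle (1.07) or the second (1.08), Timp1 (1.02, adjusted p = 0.0691) without the second contralateral muscle (1.57) or the third control muscle (1.17), and Timp1 and Plaur with a pseudocount of 0.1 TPM (1.31 and 1.05). At 7 DPI Plau was called without the third control muscle (1.03). Without the second contralateral muscle Plau at 28 DPI was 1.37 with adjusted p = 0.0831. Macrophage markers summed to 89.8 and 233 TPM in those contralateral muscles at 3 DPI and 57.7 to 91.3 TPM from 7 to 28 DPI, beside 20.3 to 42.2 in control. At 3 DPI fibroblast markers summed to 538 and 1220 TPM, beside 67.2 to 217 in control, and neutrophil markers to 8.62 and 102.5 TPM, beside 1.28 to 5.74. The part of these cell types was not tested.

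The minced graft did not bring any member past the thresholds on any day, against 0.00883%, 0.0883%, 0.0265% and 0% of all genes called at 3, 7, 14 and 28 DPI. The largest differences were at 7 DPI, where Serpine2 was higher in grafted muscle by a log2 fold change of 0.81 (SE 0.15, adjusted p = 2.31e-04) and Plau by 0.56 (SE 0.15, adjusted p = 0.011). Both passed the p threshold but not the fold limit, and 8.19% of all genes passed that p threshold. Serpine2 ran from 204 through a median of 300.3 to 471 TPM with the graft and from 100 through 192 to 288 TPM without it, and Plau from 73.9 through 96.7 to 142.6 TPM with and 48.2 through 68.4 to 91.8 TPM without (n = 8 each). The ranges overlapped for both genes. In the same muscles macrophage markers summed to 2104 to 4514 TPM with the graft (median 2631) and 679 to 3159 TPM without it (median 1769). Fibroblast markers summed to 8147 to 14850 TPM (median 12620) with and 5980 to 16910 TPM (median 11460) without, and fibre markers to 34640 to 74230 TPM (median 53550) with and 42270 to 94780 TPM (median 62480) without. Their part in these differences was not tested. With all libraries kept Serpine2 was called at 7 DPI (1.17, adjusted p = 0.0117).

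Within rats numbered below 100, Serpine2 averaged 345 ± 91.1 TPM with the graft and 239 ± 41.4 TPM without, and within those above 100, 286 ± 83.4 and 132.7 ± 41.0 TPM (n = 4 each). Only the latter pair did not overlap. For Plau the same means were 100.6 ± 22.96 and 76.9 ± 12.5 TPM, and 106.3 ± 28.5 and 62.1 ± 14.7 TPM. At 28 DPI Serpine2 was at 72.6 ± 9.85 TPM with and 68.9 ± 3.60 TPM without the graft, a log2 fold change of 0.07 (95% interval -0.35 to 0.48). The widest interval of a member on that day was that of Timp1, from -0.61 to 0.98.

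Running did not bring any member past the thresholds either. The running groups held 8, 4, 4 and 2 injured muscles without repair at 3, 7, 14 and 28 DPI, and 6, 4, 4 and 2 with the graft. In groups of this size the lack of a call does not show that running had no effect. For Plaur in grafted muscle at 28 DPI, leaving out 1 muscle at a time gave log2 fold changes from -0.39 to 0.83. Running against non-running muscle without repair gave no call among the members on any day, beside 0.0441%, 0%, 0.0177% and 0.0177% of all genes. The smallest adjusted p among the members was 0.17, for Timp2 at 7 DPI (0.47, SE 0.19). The running rats of that comparison were all numbered below 100. Non-running muscles held 557 ± 54.4 TPM of Timp2 below 100 and 345 ± 74.7 TPM above 100, and running ones 620 ± 189.5 TPM. The part of this numbering was not tested. In grafted muscle the smallest adjusted p was 0.733, with 0% of all genes called. No interaction of graft and running was called among the members, the smallest adjusted p being 0.854, beside 0.00883%, 0%, 0% and 0.00883% of all genes. At 7 DPI Serpine2 stood at 214, 173, 396 and 203 TPM in running rats without repair and at 406, 237, 238 and 439 TPM in running rats with the graft, and these groups overlapped.

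**Figure D5:**
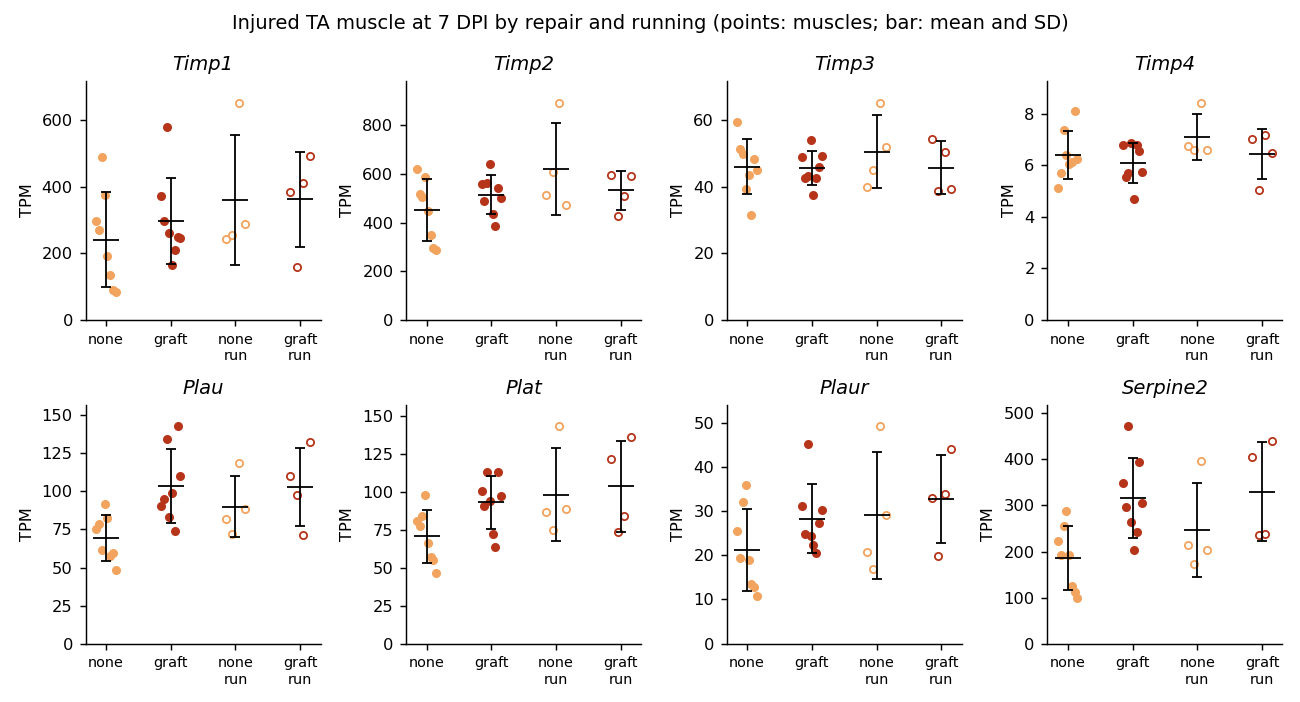
TPM of the 8 members in injured muscle at 7 DPI without repair, with the minced graft, and in both with running; points are muscles and black bars are mean and SD. Grafted non-running muscles average 316 TPM for Serpine2 and 103.4 TPM for Plau beside 186 and 69.5 TPM without repair, and the ranges overlap.

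Across the means of the 31 groups, described by Pearson's r on the log2 scale with libraries and control muscles shared, Timp1 was most like Bcat1 (0.998), Il2rg and Tes, and Plaur most like Ppm1n (0.996), Def6 and Tnfsf9. Timp2 was most like Aebp1 (0.997), Fstl1 and Mxra8. Plau was most like Ncstn (0.985), Ctss and Folr2, Plat like Csrp2 (0.992), Efnb1 and Fam132a, and Serpine2 like Cryba4 (0.985), A2m and Kif5c. Timp4 was most like Sdr39u1 (0.961), Acox2 and Chchd10. Timp3 had the lowest likeness, with Cys1 (0.937) and Adamtsl4 among the genes most like it. Among the members, Timp1 and Plaur had r = 0.987 and Timp1 and Timp4 r = -0.938, whereas Timp3 had r between -0.080 and 0.402 with every other member.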

How the data were processed

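RNA of rat TA muscles was sequenced, and the values are TPM per gene as deposited by the authors, who ran Kallisto with default settings on the GenBank-annotated rat genome, build 6.0. The submitters' processing notes name kallisto and DESeq without versions. TPM keep no counts, so the depth of a library is unknown, and no interval or floor from counts is given. The table used here runs in alphabetical order to Tubb4a, where 1 incomplete entry was left out, and symbols sorted after it are not analysed here. Kept libraries held 7866 to 10948 symbols above 1 TPM and the 13 dropped ones 901 to 5712. No 2 libraries were identical, and libraries of the same muscle were averaged.

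For the comparisons, log2(TPM + 1) was fitted with limma 3.58.1 in R 4.3.3 with a mean for each of the 31 groups (83 residual degrees of freedom) over 11328 genes that passed a filter on low values, with Benjamini-Hochberg adjustment over all of them. A call needs an adjusted p under 0.05 and a log2 fold change beyond 1. The scripts were tested on simulated data. Of the rats, 36 gave both muscles, and the rat was added as a block in an alternative: same-rat deviations correlated by 0.094 on average over 34 pairs, and the within-rat correlation estimated by limma was 0.026. Control muscles are not independent, since each of 2 rats gave 2.

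All 8 members are named, and from each longer list the highest and lowest called genes at each day, with the genes most like each member over group means. Results for some genes that this rule picks are not reported here. The members and lists were chosen with earlier results of these data known. Alternatives were another pseudocount, no filter, size factors, all libraries, single libraries, compared groups alone, no fold limit and leaving out, in turn, each of the 71 muscles in groups of 2 to 5. Muscles of the 6 groups of 6 to 8 were not left out.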

Additional observations from a re-analysis of the deposited data

Results flagged for a closer look

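In groups of 4 to 10 muscles, Dixon's gap test at the 95% level was applied to each member in each group, and 15 values stood apart, in 11 muscles. Chance alone flags about 1 in 20 groups, and the members share muscles.

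Timp1 stood apart in 4 injured muscles: 81.65 TPM in a grafted muscle at 14 DPI, where the nearest other muscle had 47.02 TPM, 949.1 TPM in a grafted running muscle at 3 DPI (nearest 552.7), 120.71 TPM in a non-repaired running muscle at 14 DPI (nearest 54.2) and 652.53 TPM in a non-repaired running muscle at 7 DPI (nearest 287.61). Timp2 did so in a non-repaired muscle at 14 DPI with 322.7 TPM (nearest 253.34). Timp3 was high in the same grafted muscle at 14 DPI as Timp1, with 74.31 TPM (nearest 55.33), and low in a grafted muscle at 3 DPI with 20.04 TPM (nearest 27.7). Timp4 was high in non-repaired running muscles at 3 DPI with 7.93 TPM (nearest 5.96) and at 7 DPI with 8.43 TPM (nearest 6.77), the latter the muscle with the high Timp1.

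Plau stood apart in grafted muscles at 28 DPI with 66.88 TPM (nearest 41.16) and at 3 DPI with 156.32 TPM (nearest 129.31). Plat did so in the grafted running muscle at 3 DPI that was high for Timp1, with 77.06 TPM (nearest 55.79). Plaur was high in the grafted muscle at 14 DPI named above, with 8.89 TPM (nearest 5.69), in a grafted muscle at 7 DPI with 45.25 TPM (nearest 31.14) and in a non-repaired muscle at 14 DPI with 6.74 TPM (nearest 5.74).

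The 9 libraries in no group, whose labels conflict, entered no comparison. Their highest values were above the highest control muscle for every member. These were 25.67 TPM for Timp1, 198.41 for Timp2, 69.25 for Timp3, 15.29 for Timp4, 40.0 for Plau, 20.2 for Plat, 4.75 for Plaur and 77.29 for Serpine2. All 9 were above the highest control for Timp2 and Plau, 6 for Timp1, Plaur and Serpine2, 5 for Timp3 and 4 for Timp4 and Plat.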

How the results depend on the processing

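The rat as a replicate block changed no call of any member in 312 comparisons of a gene. The count of calls against control remained 23. No rat gave both a control and an injured muscle, so for that count the block is no test of pairs. No filter on low values changed none either. Size factors lost 16 calls and gained 12, a pseudocount of 0.1 TPM gained 7, and keeping all libraries lost 11 and gained 7. Keeping all libraries reversed 2 values, contralateral against control at 7 DPI, for Serpine2 (-1.36) and Timp4 (-1.22), both then called lower and counted among the 7, where it adds 2 muscles that have only libraries below the limit.
For contralateral against control, 4 calls became 0 in fits of the compared groups alone and 9 with no fold limit. For graft against no repair, 0 became 1 with all libraries (Serpine2 at 7 DPI, 1.17) and 2 with no fold limit. For later against earlier days, 11 became 18 with no fold limit. Leaving out, in turn, each of the 71 muscles in groups of 2 to 5 gave 22 to 24 calls against control (23 with all), 19 to 21 against contralateral (20), 21 to 23 in grafted rats (22), 18 to 20 in running rats (19), 3 to 6 for contralateral against control, 10 to 14 between days, and 0 for graft, running and their interaction. The groups of 6 to 8 muscles, among them non-repaired and grafted injured muscle at 7 DPI, had no muscle left out, so graft against no repair at 7 DPI has no such fit. TPM hold no depth, so a small difference cannot be weighed against counting error.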
